A study of Mus musculus with 8 samples.

Results

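Cells that build cartilage and bone push large amounts of collagen and other matrix protein through the endoplasmic reticulum (ER), and the genes described here serve that route. They are 37 mouse genes in 6 classes, chosen by name: 15 folding enzymes and chaperones, 7 stress sensors and transcription factors, 3 targets of the factor ATF4, 4 genes of ER-associated degradation, 4 of collagen processing and 4 of entry into and export from the ER. They match 38 of the 55471 rows of the deposited count table, because Ddit3 has a second row, which overlaps the first on the genome and held 0 counts in all 8 libraries. All 37 genes were counted in every library, with a lowest count of 319 (Sdf2l1), and all 37 passed the filter on low counts. No member differed between Tet1 knockout (KO) and wild-type (WT) cells at an edgeR adjusted p under 0.05. The lower values in KO that the members did show lay mostly in the folding and collagen processing classes. The entry and export genes were less low in the sorted stem cells and over both cell types. In the sorted progenitors their median was close to those of these classes. The medians of the sensors and the ATF4 targets lay near 0.

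Proteins enter the ER through the SEC61 channel and are folded by the chaperone BiP (Hspa5), its J-domain partners and the protein disulfide isomerases, which form and exchange disulfide bonds. When unfolded protein accumulates, the sensors IRE1 (Ern1), PERK (Eif2ak3) and ATF6 start the unfolded protein response: IRE1 splices the Xbp1 mRNA, PERK raises the translation of ATF4, which induces CHOP (Ddit3), and ATF6 is cut to release a transcription factor. Procollagen needs lysyl hydroxylases (Plod genes) and the collagen chaperone HSP47 (Serpinh1), and its large trimers leave the ER with the receptor TANGO1 (Mia3) and the COPII coat, in which Sec23a and Sec24d serve. Counts per gene show neither Xbp1 splicing nor the translation of Atf4, so the activity of these branches was not measured.

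The samples were sorted cells of femurs taken from newborn mice of day 3 to 5, and their total RNA was sequenced in bulk. There were 4 groups of 2 libraries: KO skeletal stem cells (SSC), WT SSC, KO bone cartilage stromal progenitors (BCSP) and WT BCSP. SSC are the sorted stem cell fraction of the growth region of bone, and BCSP are a downstream progenitor fraction. Every sample, WT included, carries the strain name B6;129S4-Tet1tm1.1Jae/J, a line with a targeted Tet1 allele; TET1 is an enzyme that oxidises 5-methylcytosine. No restriction of the deletion to a cell type or time is stated. The titles number the libraries of each group round 1 and round 2, called library 1 and library 2 below. The labels do not say what a round stands for or whether libraries are separate animals or pools, so p-values measure only the spread between these samples, which may be technical.

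Library totals ran from 104782544 to 168004119 counts. Col2a1, the cartilage collagen, took 24.7% to 30.6% of counts, and Sox9 lay between 1095 and 1378 CPM (a gene's count as a share of the library's TMM-scaled total, on the usual CPM scale), so all 8 libraries carried chondrocyte transcripts at high level. Eng, whose protein CD105 separates BCSP from SSC in the usual definition of these fractions, was at 2.53 to 3.89 CPM in SSC against 25.7 to 50.5 CPM in BCSP. Tet1 was counted at 7.26 and 11.8 CPM in KO SSC against 15.6 and 19.6 CPM in WT SSC, and at 10.8 and 11.97 CPM in KO BCSP against 21.6 and 10.98 CPM in WT BCSP. WT BCSP library 2 therefore lay within the KO range for Tet1, whose log2 fold change over both cell types was -0.70 ± 0.23 (SE; edgeR adjusted p = 0.608). As far as is known the allele removes an internal exon, so counts over the whole gene check the genotype weakly.

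A few libraries stood apart in ways that touch the values below. In WT BCSP library 2, short genes were counted high relative to long ones (Spearman correlation of a gene's deviation with its exon length -0.50 over 12636 genes and -0.62 over the 37 members, which share that library). KO BCSP library 2 leaned the other way, at 0.36 over all genes and 0.23 over the members. WT SSC library 1 had the most blood transcripts: the summed level of 7 neutrophil markers was 179 CPM there and 0.139 to 49.8 CPM elsewhere. The summed level of B and plasma cell markers, of interest because plasma cells are rich in ER chaperones, was 54.3 CPM there, 39.2 CPM in WT BCSP library 1, 11.6 CPM in KO BCSP library 1 and 0.301 to 1.16 CPM in the other 5 libraries. The plasma cell chaperone cofactor Mzb1 was at 0 in 4 libraries and reached at most 0.0525 CPM.

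The members took 0.845% to 1.15% of all counts. Per kilobase of exon (FPKM, CPM divided by exon length), the mean level over the 8 libraries was highest for Serpinh1, at 849 FPKM, followed by P4hb at 572 FPKM and Atf4 at 398 FPKM. P4hb encodes a protein disulfide isomerase that is also the beta subunit of collagen prolyl 4-hydroxylase. Calr, Pdia3, Hspa5 and Herpud1 followed at 199, 146, 138 and 108 FPKM. The sensors Atf6 and Ern1 were the least abundant members, at 2.66 and 2.97 FPKM, and Eif2ak3 was at 7.15 FPKM. Among the folding class the level ran down to 4.57 FPKM for Sdf2l1, a partner of the J-domain chaperones. Genes with neighbouring levels in this order, such as Pdia3 and Hspa5, overlapped between libraries, and Mia3 is left out of the order because the annotation splits its exons over several entries.

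**Figure D1:**
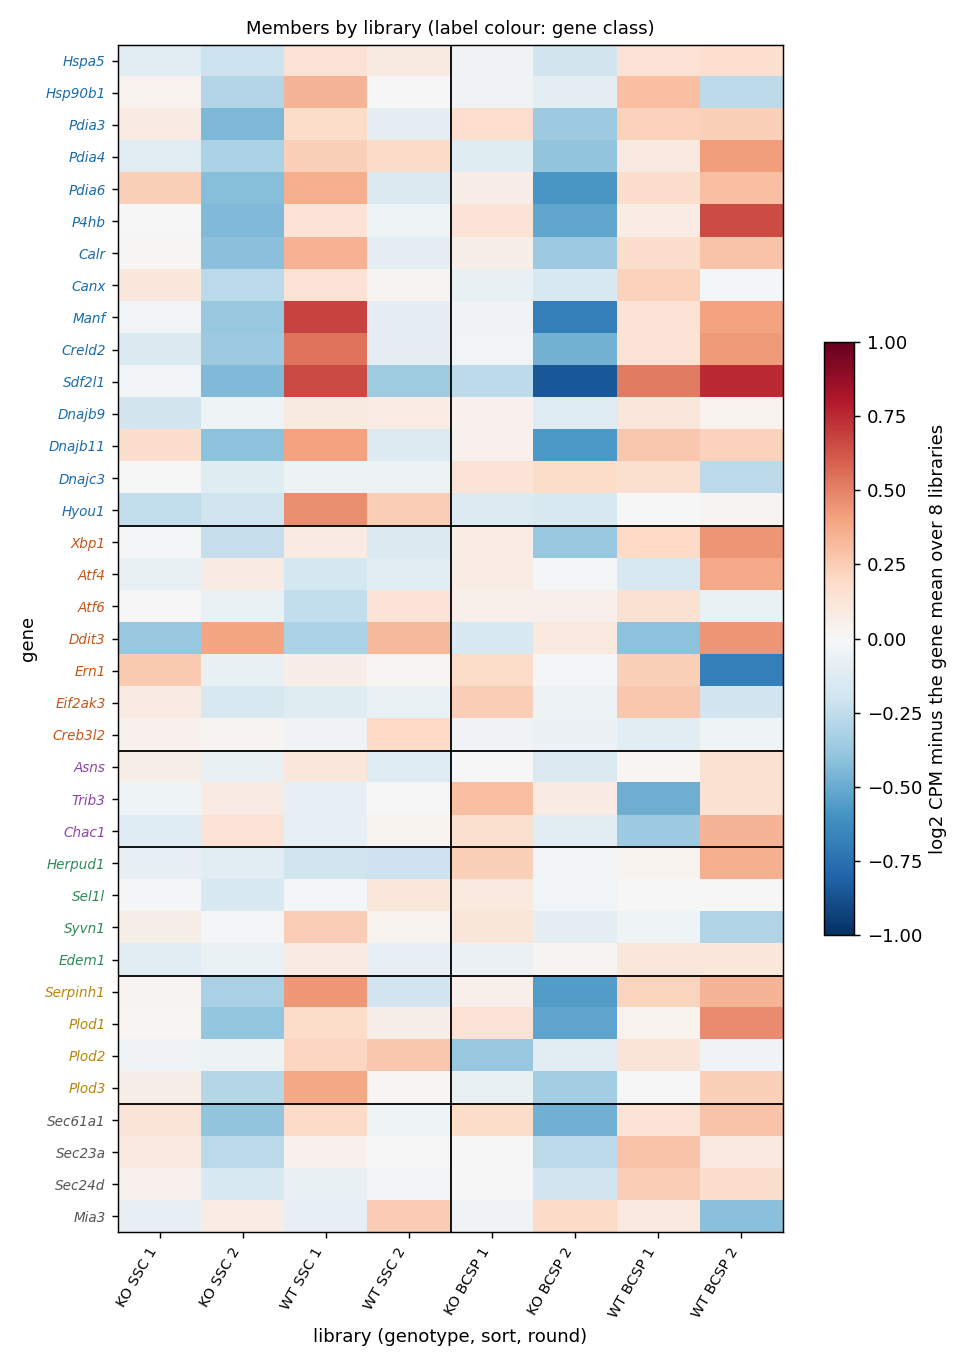
Heat map of the 37 members (rows, label colour by class) in the 8 libraries (columns), as log2 CPM minus the gene's mean over all libraries. The folding and collagen processing genes are mostly lowest in the round 2 libraries of KO and highest in WT BCSP library 2 and WT SSC library 1.

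The promoters of several members carry sequence elements through which the unfolded protein response is known to act, and they are shown so that the members' values can be read beside them. Windows of 300 bases, 250 before to 50 after the start of transcription (RefSeq, mouse build GRCm38.p6, which is mm10), were found for 32 of the 37 members and 27025 genes in all; Atf6, Hyou1, Manf, Plod2 and Sec61a1 had no entry. Both strands were searched for 5 motifs. The ER stress element ERSE, CCAAT and CCACG with any 9 bases between them, was in 8 member windows, which is 25% of the 32, against 0.137% of all genes. The shorter ERSE-II, ATTGG and CCACG with any 1 base between them, was in 2 (Dnajb11 and Herpud1), against 0.0444% of all genes. The element UPRE, TGACGTGG, was in 2 (Sec23a and Sec24d), against 0.714% of all genes. The ATF4 site CARE, TGATGNAA, was in 4 (Asns, Chac1, Herpud1 and Trib3), which is 12.5%, against 4.51% of all genes. The cyclic AMP element CRE, TGACGTCA, was in 0, against 2.03%. No match of one motif overlapped a match of another in the member windows. A match is a description of these letters, not evidence of binding, and no factor's binding was measured. The members were chosen by name, many of them as genes of this response. Their shares beside those of all genes are therefore a description and not a test.

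The ERSE of 7 members is printed with 5 flanking bases on each side, on the strand of the gene, with the motif in capitals (where it begins CGTGG it lies on the opposite strand).
Hspa5: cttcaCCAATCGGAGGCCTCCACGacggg
Calr: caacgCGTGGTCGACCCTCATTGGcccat
Canx: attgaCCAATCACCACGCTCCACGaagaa
Creld2: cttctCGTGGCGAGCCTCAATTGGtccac
Dnajc3: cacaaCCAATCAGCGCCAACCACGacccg
Pdia6: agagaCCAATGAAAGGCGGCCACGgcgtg
Syvn1: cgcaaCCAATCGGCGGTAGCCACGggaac
They lie at chr2:34772020-34772048 (plus strand) for Hspa5, chr8:84847070-84847098 (minus) for Calr, chr11:50325795-50325823 (minus) for Canx and chr15:88819515-88819543 (plus) for Creld2. Those of Dnajc3, Pdia6 and Syvn1 lie at chr14:118937822-118937850, chr12:17266486-17266514 and chr19:6046527-6046555, all on the plus strand.

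Hsp90b1, which encodes the ER chaperone GRP94, had 2 ERSE matches, both in capitals in the stretch chr10:86705511-86705674 (minus strand). Herpud1, a stress-induced member of the degradation complex, had both a CARE and an ERSE-II, in capitals in this order, in chr8:94386299-94386408 (plus strand). For the ATF4 targets, the CARE of Asns (chr6:7693215-7693242, minus strand) and of Chac1 (chr2:119351039-119351066, plus strand) is shown with 10 flanking bases.
Hsp90b1: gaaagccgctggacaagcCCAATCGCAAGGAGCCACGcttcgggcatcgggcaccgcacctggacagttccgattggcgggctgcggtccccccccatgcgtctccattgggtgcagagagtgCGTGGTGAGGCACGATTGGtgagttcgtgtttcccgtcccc
Herpud1: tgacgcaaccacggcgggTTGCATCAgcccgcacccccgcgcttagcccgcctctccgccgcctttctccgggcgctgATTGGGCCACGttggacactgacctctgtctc
Asns: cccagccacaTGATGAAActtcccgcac
Chac1: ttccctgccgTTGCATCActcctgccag

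The first question the design poses is what loss of Tet1 does in SSC. In KO SSC, 28 of the 37 members had a log2 fold change (KO over WT) below 0, against 48.6% of all 22153 genes tested, and the members' median was -0.16 against 0.01 for all genes and -0.00 for the 7659 genes of at least 10 CPM. By edgeR's quasi-likelihood test 0 of the 37 passed, where 1 gene of the whole table did (0.00451%); 1 member, Hyou1, had an unadjusted p under 0.05, against 1.2% of all genes, and DESeq2 and limma-voom called 0 members. The 2 KO and 2 WT libraries did not overlap for 8 members that were lower and 2 that were higher in KO, against 13.1% and 14.5% of all genes. Of the cell type markers in the same comparison none passed edgeR's threshold. Of 9 chondrocyte markers 8 were below 0, with a median of -0.18, close to that of the members, and for 4 the KO libraries all lay below the WT libraries. All 7 neutrophil markers, all 6 erythroid markers and 4 of 5 B and plasma cell markers were also below 0, with medians of -3.01, -2.54 and -1.16. Their sums were highest in WT SSC library 1. The neutrophil sum was 11.4 and 1.41 CPM in KO SSC against 179 and 0.139 CPM in WT SSC. The erythroid sum was 4.69 and 2.45 CPM against 36.9 and 3.04 CPM, and the B and plasma cell sum 1.16 and 0.526 CPM against 54.3 and 0.301 CPM. For neutrophil and B and plasma cell markers, WT SSC library 2 thus lay below both KO libraries. The part of these cells in the members' values was not tested. In bulk samples such as these, fewer cells of a type and less RNA per cell cannot be told apart.

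The same comparison in BCSP gave 27 of 37 members below 0 against 49.2% of all genes, with a median of -0.23. The median of all genes was 0.01 and that of genes of at least 10 CPM was -0.09, so abundant genes as a whole lay lower in KO BCSP. By edgeR 0 members passed, against 0.00451% of all genes; 2 members, Sdf2l1 and Pdia4, had an unadjusted p under 0.05, against 6.19% of all genes, and DESeq2 and limma-voom called 0 members. KO and WT libraries did not overlap for 19 members that were lower in KO, against 16.4% of all genes. They did not overlap for 0 that were higher, against 16.9%. Of the 7659 genes of at least 10 CPM, 1683 were separated in this way with KO lower and 1001 with KO higher. Among these 7659 genes, 4534 were below 0. Without both BCSP libraries of round 2 the members' median was -0.10 in BCSP. Of the markers in this comparison, none past the threshold, 7 of 9 for chondrocytes were below 0 with a median of -0.08, and all 5 for B and plasma cells with a median of -1.01. All 5 endothelial markers were above 0 (median 4.44), although their summed level was only 1.77 and 2.91 CPM in KO BCSP against 0.699 and 0.314 CPM in WT BCSP. All 5 pericyte and smooth muscle markers (median 0.67) and all 7 neutrophil markers (median 2.09) were above 0 too, with sums of 946 and 989 CPM against 821 and 961 CPM and of 49.8 and 1.37 CPM against 13.2 and 0.314 CPM, KO BCSP against WT BCSP. Their part in the members' values was not tested.

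Over both cell types, with genotype and cell type in 1 model, 27 members were below 0 against 48.4% of all genes, with a median of -0.21 against 0.02 for all genes and -0.05 for genes of at least 10 CPM. None passed edgeR's test, which called 0.0135% of all genes; DESeq2 and limma-voom called 0 members. An unadjusted p under 0.05 was reached by 5 members, all lower in KO and all folding genes. Of all genes tested, 3.96% were lower at that p. Among the 7659 genes of at least 10 CPM, 485 were lower at that p and 4339 were below 0. All 4 KO libraries lay below all 4 WT libraries for 3 members, Pdia4, Hyou1 and Hspa5, against 2.25% of all genes, and 0 lay wholly above, against 2.13%. Between the cell types, 23 members lay below 0 in both, 5 above 0 in both and 9 on opposite sides. Over both, 7 of 9 chondrocyte markers were below 0, with a median of -0.13.

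**Figure D2:**
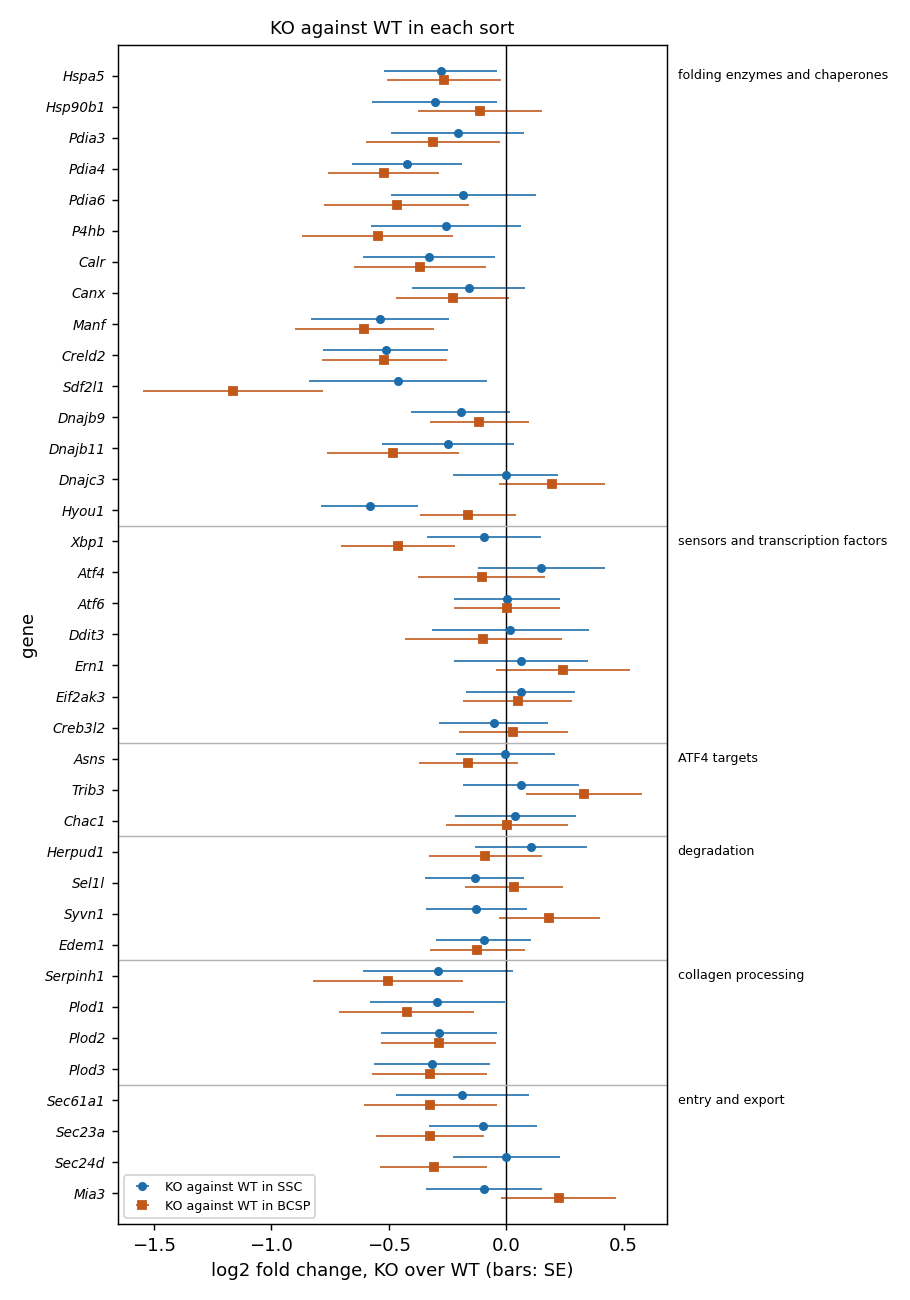
Log2 fold change (KO over WT) of each member in SSC and in BCSP, with bars of 1 SE, grouped by class. In SSC all 15 folding genes and all 4 collagen processing genes lie below 0, and most bars of the other classes reach across 0.

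The folding enzymes and chaperones held the single genes with the lowest fold changes. In KO SSC all 15 were below 0, with a median log2 fold change of -0.28; in KO BCSP 14 of 15 were, with a median of -0.37, and over both cell types 14 of 15, with a median of -0.35. The exception was Dnajc3, a J-domain partner of BiP that also inhibits PERK, at 0.10 ± 0.15 over both. None of the 15 passed edgeR's test.

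Pdia4, a protein disulfide isomerase of the BiP complex (mm10 chr6:47796141-47813430), had the lowest p over both cell types. It was at 139 and 121 CPM in KO SSC against 177 and 172 CPM in WT SSC, and at 138 and 114 CPM in KO BCSP against 161 and 201 CPM in WT BCSP. Every KO library lay below every WT library. Its log2 fold change was -0.42 ± 0.24 in SSC, -0.52 ± 0.24 in BCSP and -0.47 ± 0.15 over both (edgeR adjusted p = 1, 0.686 and 0.608). In BCSP the value was -0.22 without both round 2 libraries and -0.33 with an offset for exon length.

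Sdf2l1, a small ER protein that keeps client proteins soluble together with the J-domain chaperones, had the largest fold change (chr16:17130138-17132383). It was at 4.63 and 3.48 CPM in KO SSC against 7.47 and 3.69 CPM in WT SSC, and at 3.94 and 2.62 CPM in KO BCSP against 6.78 and 7.92 CPM in WT BCSP. The BCSP libraries separated by genotype and the SSC libraries overlapped. Its log2 fold change was -0.46 ± 0.38 in SSC, -1.16 ± 0.38 in BCSP and -0.81 ± 0.27 over both (edgeR adjusted p = 1, 0.686 and 0.609).

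Creld2, an ER protein with disulfide exchange activity that rises under ER stress (chr15:88819646-88826683), was at 24.3 and 20.9 CPM in KO SSC against 39.3 and 25.2 CPM in WT SSC. In BCSP it was at 26.4 and 19.4 CPM in KO against 29.5 and 36.1 CPM in WT. The genotypes separated within each cell type but overlapped across them. The log2 fold change of Creld2 was -0.51 ± 0.27 in SSC and -0.52 ± 0.17 over both (edgeR adjusted p = 1 and 0.609). Without WT SSC library 1 the SSC value was -0.16.

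Manf, an ER-resident factor that binds BiP and is secreted under stress (chr9:106838312-106891979), was at 38.1 and 29.98 CPM in KO SSC against 62.3 and 36.5 CPM in WT SSC, and at 37.9 and 24.2 CPM in KO BCSP against 42.98 and 51.5 CPM in WT BCSP. The SSC libraries overlapped, and the BCSP libraries did not. Its log2 fold change was -0.54 ± 0.29 in SSC, -0.60 ± 0.29 in BCSP and -0.57 ± 0.20 over both (edgeR adjusted p = 1, 0.686 and 0.610). Its BCSP value was -0.28 without KO BCSP library 2 and -0.18 without both round 2 libraries. Its SSC value was -0.10 without WT SSC library 1, the library with the most blood transcripts, whose part in the Creld2 and Manf values was not tested.

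Hyou1, a large relative of Hsp70 that exchanges nucleotide on BiP (chr9:44379490-44392369), was at 40.2 and 41.7 CPM in KO SSC against 65.96 and 56.6 CPM in WT SSC. In BCSP it was at 43.5 and 43.1 CPM in KO against 48.0 and 48.8 CPM in WT. All 4 KO libraries lay below all 4 WT libraries. The log2 fold change of Hyou1 was -0.58 ± 0.21 in SSC, -0.16 ± 0.20 in BCSP and -0.37 ± 0.14 over both (edgeR adjusted p = 1, 0.846 and 0.614). In SSC it was -0.47 without WT SSC library 1.

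Hspa5 itself, named because it was among the 3 separated genes and so chosen after its values were seen, was at 537 and 501 CPM in KO SSC against 641 and 618 CPM in WT SSC, and at 568 and 512 CPM in KO BCSP against 643 and 655 CPM in WT BCSP. The separation was complete but small. Its log2 fold change was -0.27 ± 0.15 over both (edgeR adjusted p = 0.651).

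P4hb, the most abundant gene of the class, was at 1587 and 1174 CPM in KO SSC against 1753 and 1544 CPM in WT SSC, and at 1745 and 1111 CPM in KO BCSP against 1679 and 2496 CPM in WT BCSP. The genotypes overlapped in both cell types, and in BCSP the 2 WT libraries lay far apart. The log2 fold change of P4hb was -0.40 ± 0.21 over both (edgeR adjusted p = 0.646). The remaining 7 folding genes ran from -0.36 for Dnajb11 to -0.15 for Dnajb9 over both, with Calr at -0.35 ± 0.18, Pdia6 at -0.32 ± 0.21, Pdia3 at -0.26 ± 0.18, Hsp90b1 at -0.21 ± 0.17 and Canx at -0.19 ± 0.15.

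**Figure D3:**
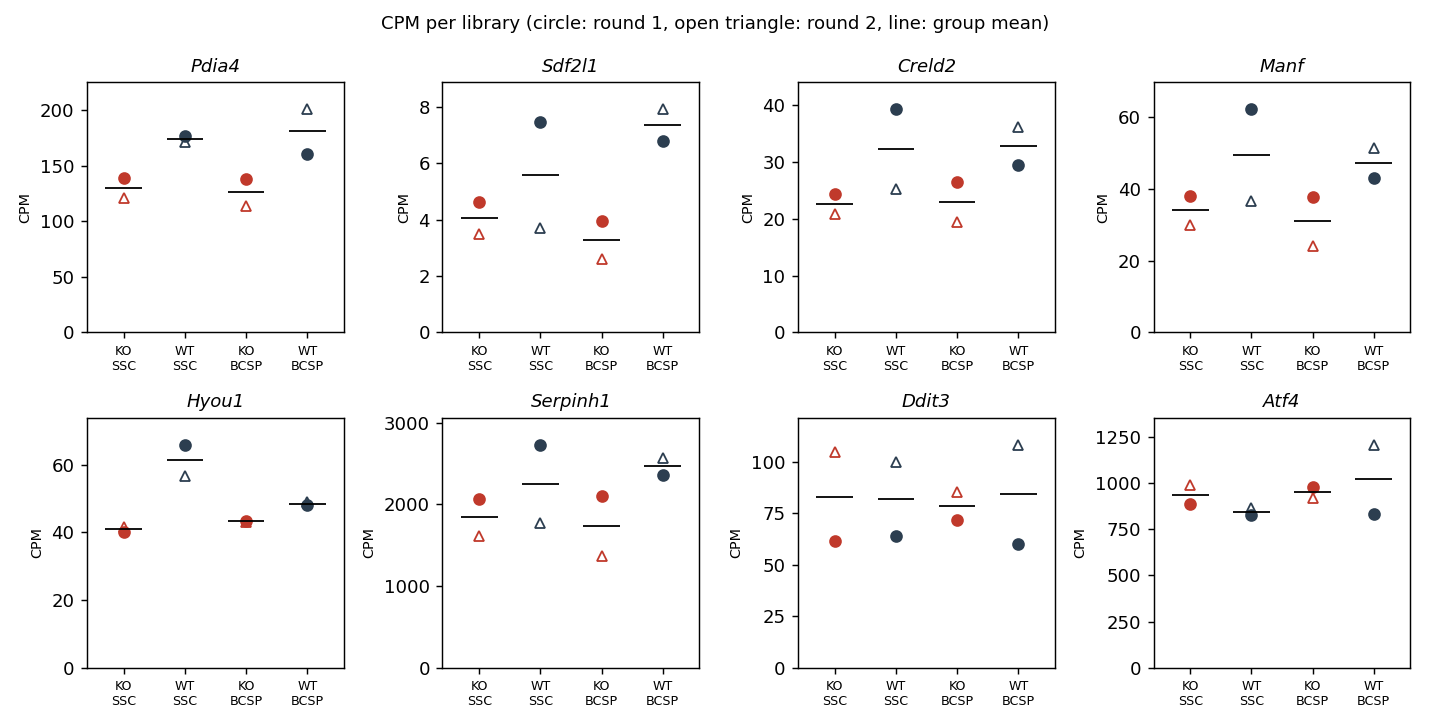
CPM per library of 8 members, by group, with KO left of WT in each cell type; circles are round 1, open triangles round 2 and lines the group mean of 2 libraries. Pdia4 and Hyou1 separate completely by genotype, and Ddit3 separates by round.

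In collagen processing, all 4 genes were below 0 in KO in each cell type, with medians of -0.29 in SSC, -0.37 in BCSP and -0.34 over both; none passed. Serpinh1, the collagen chaperone and the most abundant member, was at 2068 and 1617 CPM in KO SSC against 2734 and 1772 CPM in WT SSC, and at 2104 and 1373 CPM in KO BCSP against 2364 and 2566 CPM in WT BCSP (chr7:99345376-99353239). The genotypes overlapped in SSC and separated in BCSP. Its log2 fold change was -0.29 ± 0.32 in SSC, -0.50 ± 0.32 in BCSP and -0.40 ± 0.21 over both (edgeR adjusted p = 1, 0.686 and 0.646). Plod2, the hydroxylase that acts on collagen telopeptides, was at 514 and 509 CPM in KO SSC against 611 and 636 CPM in WT SSC, and at 404 and 487 CPM in KO BCSP against 575 and 513 CPM in WT BCSP. Within each cell type the genotypes did not overlap, and the log2 fold change of Plod2 was -0.29 ± 0.15 over both (edgeR adjusted p = 0.648). The other lysyl hydroxylases were -0.36 ± 0.19 for Plod1 and -0.32 ± 0.16 for Plod3; exons of Plod3 overlap Znhit1 on the opposite strand, whose counts came to 8.33% of those of Plod3.

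The sensors and transcription factors did not share that direction. In SSC 2 of 7 were below 0, in BCSP 3 and over both 3, with medians of 0.02, 0.00 and 0.00; none passed or had an unadjusted p under 0.05. Atf4, the factor translated when eIF2 is phosphorylated and the class's most abundant gene, was at 885 and 988 CPM in KO SSC against 826 and 863 CPM in WT SSC, and at 981 and 918 CPM in KO BCSP against 833 and 1209 CPM in WT BCSP. In SSC both KO libraries lay above both WT libraries, and in BCSP they lay between them. Its log2 fold change over both was 0.02 ± 0.17 (edgeR adjusted p = 0.981). Ddit3 was -0.04 ± 0.22 and Creb3l2, the membrane-bound factor BBF2H7 that drives secretion genes in chondrocytes, -0.01 ± 0.15. The kinase sensors were 0.15 ± 0.19 for Ern1 and 0.06 ± 0.15 for Eif2ak3, and Atf6 was 0.00 ± 0.14. The SE of these genes ran from 0.14 to 0.22, and the median of the folding class over both was -0.35. Whether the sensors differed from the folding class was not tested.

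Xbp1 had the lowest value of the sensor class. It was at 122 and 105 CPM in KO SSC against 131 and 112 CPM in WT SSC, and at 130.3 and 95.1 CPM in KO BCSP against 142 and 168 CPM in WT BCSP. Only the BCSP libraries separated by genotype. The log2 fold change of Xbp1 was -0.10 ± 0.24 in SSC and -0.46 ± 0.24 in BCSP (edgeR adjusted p = 1 and 0.686).

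The ATF4 targets lay near 0, with class medians of 0.04 in SSC, 0.00 in BCSP and 0.02 over both. Chac1, which degrades glutathione and is induced by ATF4 and CHOP, was at 77.2 and 93.2 CPM in KO SSC against 79.4 and 86.4 CPM in WT SSC, and at 94.1 and 78.3 CPM in KO BCSP against 65.5 and 107 CPM in WT BCSP. The genotypes overlapped in both cell types. Over both, Chac1 was 0.02 ± 0.17, the asparagine synthetase gene Asns -0.08 ± 0.14 and the pseudokinase gene Trib3 0.20 ± 0.16 (edgeR adjusted p = 0.982, 0.885 and 0.749).

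In the degradation class 3 of 4 genes were below 0 in KO SSC and 2 of 4 in KO BCSP, with medians of -0.11 and -0.03. Herpud1 was at 235 and 231 CPM in KO SSC against 217 and 216 CPM in WT SSC, and at 294 and 245 CPM in KO BCSP against 255 and 318 CPM in WT BCSP. The SSC libraries separated with KO higher, and the BCSP libraries overlapped; over both, Herpud1 was 0.01 ± 0.15. Sel1l and Syvn1, which form the core of the HRD1 ubiquitin ligase complex, were -0.05 ± 0.13 and 0.03 ± 0.14, and Edem1, which trims mannose from misfolded glycoproteins, was -0.11 ± 0.13. Exons of Syvn1 overlap Mrpl49 on the opposite strand, whose counts came to 25.5% of those of Syvn1, and the strand of counting is not stated.

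In entry and export 3 of 4 genes were below 0 in each cell type, with medians of -0.10 in SSC, -0.32 in BCSP and -0.18 over both. Sec61a1, the channel subunit, was at 241 and 167 CPM in KO SSC against 251 and 213 CPM in WT SSC, and at 249 and 158 CPM in KO BCSP against 241 and 268 CPM in WT BCSP. The genotypes overlapped in both cell types, with the round 2 libraries lowest in KO. Over both, Sec61a1 was -0.26 ± 0.19, Sec23a -0.21 ± 0.15, Sec24d -0.15 ± 0.15 and Mia3 0.06 ± 0.16 (edgeR adjusted p = 0.710, 0.706, 0.788 and 0.937).

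The members with an ERSE, the element printed above, were folding genes apart from Syvn1. Their 8 log2 fold changes had a median of -0.23 in SSC, -0.25 in BCSP and -0.24 over both; 8, 6 and 6 of them were below 0. The 24 members with a promoter entry and no ERSE had medians of -0.10, -0.14 and -0.13, and 14 other tested genes with an ERSE -0.08, -0.16 and -0.04. These 24 include sensors, ATF4 targets and degradation genes, so the sets differ in class as well as in the element. Over both, the ERSE members ran from -0.52 to 0.10 and the 24 from -0.81 (Sdf2l1, a folding gene) to 0.20. Whether folding genes with and without an ERSE differed was not tested. Of the members with the 3 lowest p values over both, Creld2 has an ERSE match and Pdia4 and Sdf2l1 have none, which says only that these letters are not in their windows.

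Whether the KO effect differed between the cell types was tested as an interaction, SSC minus BCSP. By edgeR 0 members passed and 0 had an unadjusted p under 0.05, against 0% and 1.27% of all genes; DESeq2 and limma-voom called 0 members. The members' median was 0.04, with 11 of 37 below 0 against 47.1% of all genes; the median was 0.04 for all genes and 0.09 for genes of at least 10 CPM. The 3 lowest p values belonged to Hyou1 (-0.42 ± 0.29), Sdf2l1 (0.70 ± 0.54) and Xbp1 (0.36 ± 0.34), each with an edgeR adjusted p of 1. The Xbp1 difference was 0.02 without both BCSP libraries of round 2, and that of Sdf2l1 was 0.29 without WT SSC library 2 and 1.30 without WT SSC library 1.

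Between the cell types themselves the members differed by small amounts. The log2 fold change, SSC over BCSP across both genotypes, ran from -0.31 to 0.20 with a median of -0.03, and 24 of 37 were below 0 against 48.2% of all genes. By edgeR 0 members passed, against 0.00451% of all genes, the 1 gene being Eng; 0 had an unadjusted p under 0.05, against 3.71%, and DESeq2 and limma-voom called 0 members. Herpud1 had the lowest p, at -0.31 ± 0.15 (edgeR adjusted p = 1), and its 4 SSC libraries, at 216 to 235 CPM, all lay below its 4 BCSP libraries, at 245 to 318 CPM; it was the 1 member so separated, against 1.05% of all genes. Plod2 was highest, at 0.20 ± 0.15, with 509 to 636 CPM in SSC against 404 to 575 CPM in BCSP, which overlapped. Syvn1 was at 44.0, 41.7, 50.2 and 43.4 CPM in SSC (KO libraries 1 and 2, then WT 1 and 2) against 46.2, 39.7, 41.2 and 34.4 CPM in BCSP, and its log2 ratio was 0.15 ± 0.14 (edgeR adjusted p = 1).

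The last comparison was between rounds. Round 2 against round 1 was tested with the 4 groups in the model. The members' median was -0.16, with 28 of 37 below 0 against 49.9% of all genes. Among the 7659 genes of at least 10 CPM, 4286 were below 0. All 15 folding genes were below 0. By edgeR 0 members passed, against 1.76% of all genes; 4 had an unadjusted p under 0.05, against 11.4%, and DESeq2 and limma-voom each called 1, Ddit3. Ddit3, the gene of the stress-induced factor CHOP (chr10:127290774-127296288), was at 104.7 CPM in KO SSC, 99.9 in WT SSC, 85.4 in KO BCSP and 108 in WT BCSP in round 2. In round 1 it was at 61.3 CPM in KO SSC, 64.1 in WT SSC, 71.7 in KO BCSP and 59.9 in WT BCSP. All 4 round 2 libraries lay above all 4 round 1 libraries, as in 4.01% of all genes, and Ddit3 was 0.63 ± 0.15 on the log2 scale (edgeR adjusted p = 0.0566). That p was 0.00428 by DESeq2, 0.0407 by limma-voom and 0.00797 by edgeR with an offset for exon length; it ran from 7.89e-06 to 0.414 as libraries were left out in turn, the fold change staying between 0.55 and 0.75.

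Among the chaperones, Dnajb11, a J-domain partner of BiP, was at 30.3 CPM in KO SSC, 36.6 in WT SSC, 27.0 in KO BCSP and 47.1 in WT BCSP in round 2, against 45.4, 53.3, 41.4 and 48.4 CPM in the same groups in round 1. Pdia6, a protein disulfide isomerase that attenuates IRE1, was at 208, 252, 187 and 345 CPM in round 2 against 330.0, 359, 292 and 316 CPM in round 1, in the same order of groups. Both were lower in round 2 in every group except WT BCSP, where Pdia6 was higher and Dnajb11 nearly level. Ern1, at -0.37 ± 0.17, was the 1 member whose round 2 libraries all lay below those of round 1, as in 3.61% of all genes. The log2 fold changes were -0.44 ± 0.16 for Dnajb11 and -0.42 ± 0.17 for Pdia6 (edgeR adjusted p = 0.234 and 0.335). With WT BCSP library 1 or library 2 left out, 14 members passed edgeR's test, Ddit3 higher and 13 lower, among them Dnajb11, Pdia6, P4hb, Calr and Serpinh1. With WT BCSP library 1 out, 15.8% of all genes passed and 8.51% were lower; with library 2 out, 15.5% and 7.97%. Without both BCSP libraries of round 2, 6 members passed, 1 higher and 5 lower, against 7.75% of all genes and 3.41% lower. Markers of other states moved with the round: 4 of 7 osteoblast markers and 2 of 5 hypertrophic chondrocyte markers were lower in round 2 and passed, as were 2 of 7 neutrophil, 2 of 6 erythroid, 1 of 4 macrophage and 1 of 5 B and plasma cell markers. All 7 neutrophil and all 5 B and plasma cell markers were below 0, with medians of -4.97 and -2.32. The hypertrophic sum was 442 and 433 CPM in KO SSC and KO BCSP and 738 and 556 CPM in WT SSC and WT BCSP in round 2, against 1474, 591, 1358 and 806 CPM in round 1. Their part in the member values was not tested.

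**Figure D4:**
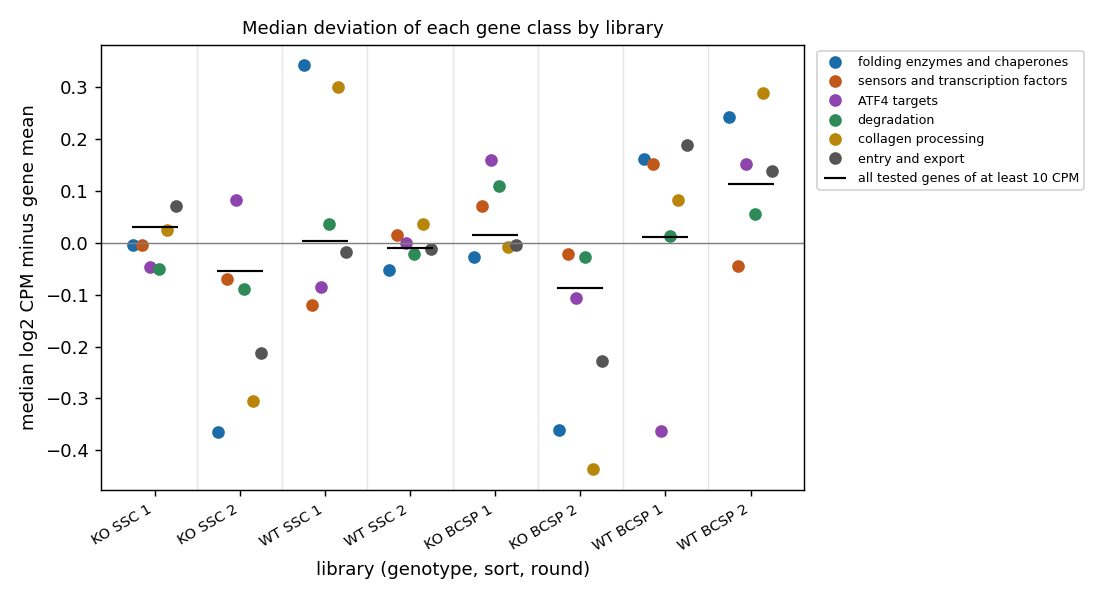
Median over each class of log2 CPM minus the gene's mean, in each of the 8 libraries, with the median of all tested genes of at least 10 CPM as a black bar. The folding class reaches -0.37 in KO SSC library 2 and -0.36 in KO BCSP library 2, and 0.34 in WT SSC library 1 and 0.24 in WT BCSP library 2.

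Seen by library, the folding class sat at -0.00 and -0.37 in KO SSC libraries 1 and 2 (median deviation from the gene mean, log2) against 0.34 and -0.05 in WT SSC, and at -0.03 and -0.36 in KO BCSP against 0.16 and 0.24 in WT BCSP. Collagen processing ran in parallel, at 0.02 and -0.30 in KO SSC against 0.30 and 0.04 in WT SSC, and at -0.01 and -0.44 in KO BCSP against 0.08 and 0.29 in WT BCSP. The round 2 KO libraries were thus the low ones: KO BCSP library 2 was the lowest library for 14 of the 37 members and KO SSC library 2 for 7. At the top, WT BCSP library 2 was the highest library for 13 members and WT SSC library 1 for 10. The median of the sensors stayed between -0.12 and 0.15 in all 8 libraries, but some single genes ranged more widely. Ddit3 ran from -0.41 in WT BCSP library 1 to 0.44 in WT BCSP library 2. Ern1 ran from -0.68 in WT BCSP library 2 to 0.26 in KO SSC library 1, and Creb3l2 only from -0.10 to 0.20. In genes of at least 10 CPM the median was -0.09 in KO BCSP library 2 and 0.11 in WT BCSP library 2, the libraries with opposite leanings on exon length.

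Further genes of the same pathways, counted beside the members, had no gene past edgeR's threshold in the KO comparisons. Of 20 further chaperones and oxidoreductases, 19 were below 0 in KO SSC, 20 in KO BCSP and 20 over both, with medians of -0.19, -0.39 and -0.30. The lowest p over both belonged to Pdia5, a protein disulfide isomerase, at 62.8 and 37.4 CPM in KO SSC against 69.5 and 57.3 CPM in WT SSC and at 46.0 and 35.9 CPM in KO BCSP against 57.3 and 75.0 CPM in WT BCSP; its log2 fold change was -0.52 ± 0.19 (edgeR adjusted p = 0.614). Of 22 further collagen processing genes, 14, 18 and 15 were below 0, led by P4ha2, an alpha subunit of collagen prolyl 4-hydroxylase, at -0.44 ± 0.17 over both (edgeR adjusted p = 0.614). Of 41 entry and export genes, 30, 31 and 30 were below 0, with Srp14 of the signal recognition particle at -0.53 ± 0.19 (edgeR adjusted p = 0.614). Of 17 degradation genes, 12, 15 and 15 were below 0. In SSC, BCSP and over both, the medians were -0.12, -0.22 and -0.16 for the further collagen processing genes. They were -0.14, -0.34 and -0.22 for entry and export and -0.09, -0.29 and -0.23 for degradation. The 19 further sensing and integrated stress response genes were mostly above 0, with 5, 6 and 6 below 0 and medians of 0.20, 0.05 and 0.15, and the 21 further ATF4 amino acid targets were mixed, with 11, 13 and 11 below 0.

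By round, 2 of these 140 further genes passed, or 1.43%, against 1.76% of all genes, a share near the background; both were higher in round 2. Cebpb, a stress-responsive transcription factor gene that partners CHOP, was at 438, 282, 403 and 457 CPM in KO SSC, WT SSC, KO BCSP and WT BCSP in round 2, against 186, 193, 247 and 148 CPM in round 1 (log2 fold change 1.03 ± 0.19, edgeR adjusted p = 0.0132). Cth, the cystathionine gamma-lyase gene that ATF4 induces, was at 15.8, 13.9, 14.1 and 15.7 CPM in round 2 against 9.46, 8.82, 8.45 and 8.57 CPM in round 1 (0.75 ± 0.16, edgeR adjusted p = 0.0289). Neither gene's rounds overlapped, with round 2 higher, as in 4.01% of all genes. Of 12 immediate-early and heat shock genes that respond to tissue dissociation, 12 were above 0 in round 2, with a median of 0.44, 9 at an unadjusted p under 0.05 and none past the threshold; the lowest edgeR adjusted p was 0.0607, for Jun.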

How the data were processed

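The table holds raw counts per gene for 8 libraries as the authors deposited them. STAR, featureCounts, DESeq2 and the build mm10 are named, without versions, per the submitters' processing notes, but the deposited table carries htseq in its name, so which program counted is unclear. Annotation release and strand of counting are not stated. Column names with SCC and BCP were read as SSC and BCSP. Of 55471 rows, 55230 matched GENCODE M21, used for positions and exon lengths.

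Counts were tested in edgeR 4.0.16 (R 4.3.3, limma 3.58.1) with TMM scaling (factors 0.854 to 1.06) and filterByExpr (minimum count 10, minimum total 15), leaving 22153 genes. Quasi-likelihood fits had 1 mean per group (4 residual degrees of freedom), or genotype plus cell type (5), which treats SSC and BCSP libraries as independent. P-values were Benjamini-Hochberg adjusted over all tested genes, with a threshold of 0.05. Fold changes carry SE. The scripts were tested on simulated data with 1 fixed spread, a coefficient of variation between libraries of 0.231. The fit's common estimate over all tested genes was 0.525, and the median of its estimates by expression level was 0.230. Simulated libraries were drawn independently, without the length trends or shared round deviations of the real ones, so recovery in the real data could be lower. Of 200 simulated 2-fold changes, 22 were recovered for KO against WT in SSC, 31 in BCSP and 143 over both. Of 200 simulated 4-fold changes, 197, 198 and 200 were recovered. Smaller changes were not simulated. Alternatives included DESeq2 1.42.0, other filters and left-out libraries. Motifs were searched with Python 3.11.15.

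The members and lists were chosen with earlier results of these data known. Values in every library are given for the 3 members with the lowest p in each comparison and the most abundant member of each class.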

Additional observations from a re-analysis of the deposited data

How the results depend on the processing

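No member passed in the 5 comparisons other than the rounds under any of the 16 or 17 alternatives of each, and none of the 3 members with the lowest p in each comparison changed direction. Other members did: the number below 0 in KO ran from 23 to 32 of 37 in SSC, from 24 to 29 in BCSP and from 26 to 32 over both. By round, the number of members past the threshold was 0, and it was 1 (Ddit3) without a low-count filter, with DESeq2, with limma-voom and with the length offset, 6 without both BCSP libraries of round 2, and 0 to 14 as single libraries were left out. The members' median log2 fold change ran from -0.30 to -0.08 in SSC, from -0.27 to -0.10 in BCSP and from -0.28 to -0.13 over both; the SSC extremes came without KO SSC library 1 and without WT SSC library 1. The interaction median changed sign with the libraries, from -0.14 to 0.15. A library left alone in its group was assumed to vary like the others, and it does not inform the difference between the rounds.

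Calls over the whole table moved more than the members did. In SSC, BCSP and over both, 1, 1 and 3 genes passed, against 4, 38 and 234 without a low-count filter and 14, 37 and 114 with DESeq2. SSC against BCSP gave 1, against 66, 41 and, without both BCSP libraries of round 2, 36. The rounds gave 390, against 861 without a filter, 955 with DESeq2, 729 with the length offset, 1856 without both BCSP libraries of round 2, and 275 to 3909 as single libraries were left out.

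Same-numbered libraries of different groups deviated together unevenly (r = 0.06 to 0.64 over 12639 genes, lowest between KO and WT BCSP), and with only 2 numbers the labels do not show that they pair the samples. Over the 37 members, r was 0.69 to 0.73 among KO SSC, KO BCSP and WT SSC. For the pairs with WT BCSP it ran from -0.28 to 0.28. With the round as a replicate block, 0 members passed in each comparison, and 2, 3, 28, 2 and 2 genes of the whole table passed in SSC, BCSP, over both, the interaction and SSC against BCSP; with the block and a length offset these were 3, 19, 84, 2 and 37. The lowest count of any member in a library was 319.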

Other observations

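A few cytosolic heat shock genes, which answer misfolding outside the ER, had higher values in KO; they were picked after their values were seen from 12 immediate-early and heat shock genes, of which 6 were below 0 over both cell types with a median of -0.01. Hspa1a was at 103 and 225 CPM in KO SSC against 83.0 and 87.7 CPM in WT SSC, and at 149 and 172 CPM in KO BCSP against 82.6 and 115 CPM in WT BCSP. Hspa1b was at 216 and 526 CPM in KO SSC against 146 and 220.1 CPM in WT SSC, and at 318 and 510.3 CPM in KO BCSP against 203 and 216 CPM in WT BCSP. Hsph1, a nucleotide exchange factor for cytosolic Hsp70, was at 51.5 and 129 CPM in KO SSC against 41.6 and 61.5 CPM in WT SSC, and at 71.4 and 136 CPM in KO BCSP against 56.4 and 43.8 CPM in WT BCSP. Over both cell types the log2 fold changes were 0.82 ± 0.22 for Hspa1a, 1.002 ± 0.26 for Hspa1b and 0.93 ± 0.28 for Hsph1, and none passed (edgeR adjusted p = 0.493, 0.461 and 0.608). Hspa1a and Hspa1b are near-identical copies, so reads can be split between them. Hsp90aa1 was 0.32 ± 0.21, Dnajb1 0.05 ± 0.21 and Hspa8 -0.04 ± 0.18 over both. The KO libraries of round 2 had the highest values of Hspa1b and Hsph1; the round's part in these values was not tested.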
